A study of Mus musculus with 4 samples.

Results

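Single-base changes that turned a C:G pair into an A:T pair (C>A) or into a G:C pair (C>G) were described in the coding variant lists of 4 mouse tumour cell lines. A change was a member if the altered base pair, read from the codon and folded to the strand that holds the pyrimidine, was C>A or C>G, so that G>T and G>C changes were included. Of 2013 listed variants, 414 were members, 219 of them C>A and 195 C>G. They lay at 368 distinct positions, 191 for C>A and 177 for C>G. YUMM 1.1 held 58 C>A and 98 C>G changes among 428 variants, UV YUMM 1.1-9 held 59 and 33 among 653, YUMM 1.3 held 32 and 25 among 225, and MB49 held 70 and 39 among 707.

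Genomic DNA was captured with an exome kit and sequenced as 1 library per line, without replicates. Every test below therefore compares libraries, or groups of variants within 1 library, and not conditions. YUMM lines are known, as background, as melanoma lines from engineered mice, whose alleles the labels do not list, and MB49 is known as a mouse bladder carcinoma line. UV YUMM 1.1-9 is by its name a derivative of YUMM 1.1, and the labels give neither a dose nor a number of exposures. The labels call the source of all 4 samples mouse tumours, the extraction text names cell lines and leaves out YUMM 1.3, and a protocol repeated for every sample describes MB49 cells placed under the skin of mice after tamoxifen-induced loss of Atg7. The labels describe the tumour cells as male and of the C57Bl/6J background. No sample was labelled MB49, and the list with that heading was assigned to the sample with the label 49XC-49 because the other 3 headings matched the other 3 labels. The UV YUMM 1.1-9 list holds only changes additional to those of YUMM 1.1, so the lists of these lines share no change by construction. Exome data hold no expression, and the cell type of the lines was not checked by markers.

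Transversions exchange a pyrimidine for a purine and are rarer in most tissues than C>T changes. C>A is the known outcome of oxidised guanine, which pairs with adenine, and of bulky adducts on guanine, while C>G is known from uracil left by cytidine deaminases and then removed, when a translesion polymerase places C opposite the empty site. Ultraviolet light is known mainly for C>T changes at adjacent pyrimidines, and sunlight's longer wavelengths also for oxidised guanine.

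In the bases beside the changed C, the C>G changes of YUMM 1.1 stood apart from the C>A changes of the same list. No other feature was tested between these classes. Most neighbours could be read only from the 3 letters of the codon. For 4 members the surrounding RefSeq sequence of GRCm38.p6 was at hand because the site fell within the window around a gene's start (for Aldh3b1, the start of Gm42059), and it is shown on the strand that carries the changed C, with the changed C and the base on either side in capitals. Aldh3b1, an aldehyde dehydrogenase (chr19:3918722-3918782, minus strand), and Znhit2, a zinc finger protein (chr19:6061203-6061256, plus strand), show the arrangement that recurred among C>G changes of YUMM 1.1, a C between G and C. Pramel7, a member of the Prame family (chr2:87492369-87492414, minus strand), is a C>G change of MB49, and 4930522H14Rik (chr4:109531190-109531250, minus strand) is a C>A change of YUMM 1.1 that makes a stop codon.
Aldh3b1 A267G, C>G: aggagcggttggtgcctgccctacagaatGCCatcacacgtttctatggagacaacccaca
Znhit2 P3A, C>G: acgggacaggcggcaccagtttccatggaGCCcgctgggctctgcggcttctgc
Pramel7 A12G, C>G: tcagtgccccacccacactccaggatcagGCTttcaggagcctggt
4930522H14Rik S3*, C>A: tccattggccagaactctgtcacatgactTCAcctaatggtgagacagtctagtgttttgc
In each of these 4 windows the base at the changed position was a C and the neighbours known from the codon matched. The codon of Znhit2 begins with the changed C, so its 5′ G was visible only in the window.

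C>G outnumbered C>A in YUMM 1.1 and was the smaller class in the other 3 lists. Shares of the UV YUMM 1.1-9 list describe its changes additional to YUMM 1.1, and not all changes of that line. C>G made 22.9% of the YUMM 1.1 list (exact Clopper-Pearson 95% interval 19.0 to 27.2), 11.1% of YUMM 1.3 (7.32 to 16.0), 5.52% of MB49 (3.95 to 7.46) and 5.05% of UV YUMM 1.1-9 (3.50 to 7.02). The YUMM 1.1 share was above those of the other 3 lists, and that of YUMM 1.3 lay above those of MB49 and UV YUMM 1.1-9, by two-sided Fisher's exact tests adjusted by Benjamini-Hochberg over 6 substitution classes and 6 pairs of lines. Between YUMM 1.1 and YUMM 1.3 the C>G share differed by 11.8 percentage points (Newcombe 95% interval 5.73 to 17.2; adjusted p by Fisher's exact test = 0.00108). UV YUMM 1.1-9 and MB49 did not differ past the threshold of 0.05 (-0.46 points, -2.87 to 1.98; adjusted p by Fisher's exact test = 0.760).

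C>A shares spanned a narrower range, with 14.2% of YUMM 1.3 (9.94 to 19.5), 13.6% of YUMM 1.1 (10.5 to 17.2), 9.90% of MB49 (7.80 to 12.3) and 9.04% of UV YUMM 1.1-9 (6.95 to 11.5). Of the 6 pairs of lines, 1 passed, YUMM 1.1 above UV YUMM 1.1-9 by 4.52 points (0.708 to 8.59; adjusted p by Fisher's exact test = 0.0458). That call was lost under 5 of 6 other settings, among them a depth of at least 20 reads (4.64 points; adjusted p by Fisher's exact test = 0.0501), while the sign of the difference held under all 6. The share of a class falls when another class of the list grows. C>T made 21.7% of YUMM 1.1 and 43.3% of UV YUMM 1.1-9. The C>A counts were 58 and 59, and the C>G counts 98 and 33. These lists have unlike floors, and that of UV YUMM 1.1-9 holds only gains over YUMM 1.1. With a common floor of 5 alternative reads and 10%, C>A made 58 of 428 and 29 of 376. What part the C>T share or the make-up of the lists has in the class shares was not tested. YUMM 1.3 exceeded UV YUMM 1.1-9 by a similar amount, without passing (-5.19 points for UV YUMM 1.1-9 minus YUMM 1.3, -10.7 to -0.529; adjusted p by Fisher's exact test = 0.0626). Intervals from counts of variants or reads cover counting error only, since reads without molecular identifiers are not independent molecules and variants of 1 library share that library.

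**Figure D1:**
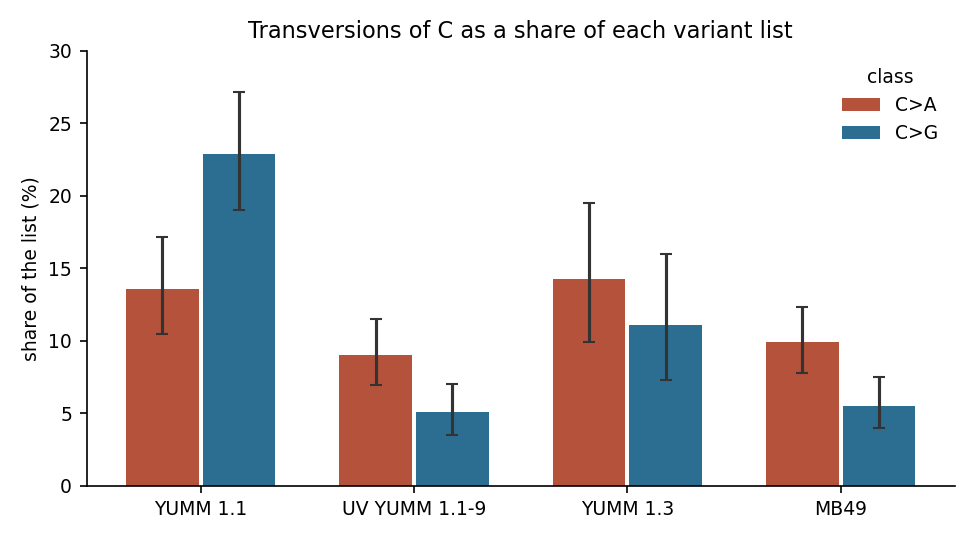
Share of each variant list (y axis, %) made of C>A and C>G changes in the 4 lines, with exact 95% intervals as error bars. C>G reaches 22.9% in YUMM 1.1, where it exceeds C>A, and is the smaller class in the other 3 lines.

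The C>G changes of YUMM 1.1 lay mainly beside G on the 5′ side and C on the 3′ side. The 5′ base was known for 58 of the 98 changes and was G in 38, or 65.5% (51.9 to 77.5). The 3′ base was known for 71 and was C in 49, or 69.0% (56.9 to 79.5). Among C bases that were not changed, in the codons of all 2013 variants of every class, G preceded 22.7% (301 of 1328) and C followed 25.5% (308 of 1207). No C>G change of YUMM 1.1 lay before a G, the CpG arrangement (0 of 71, which allows a share of up to 5.06%), whereas 13.3% of unchanged C bases did.

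Against the C>A changes of YUMM 1.1, each of these differences passed a test that was added after the data were seen, within a family of 32 tests (8 bases in 4 lists). A 5′ G was found in 9 of 35 C>A changes, so that C>G was higher by 39.8 points (19.0 to 55.7; adjusted p by Fisher's exact test = 0.00306). A 3′ C was found in 8 of 38 C>A changes, so that C>G was higher by 48.0 points (28.8 to 61.8; adjusted p by Fisher's exact test = 7.16e-05). A 3′ A was the less frequent neighbour of C>G (5 of 71 against 14 of 38, -29.8 points, -46.2 to -13.9; adjusted p by Fisher's exact test = 0.00306). The lack of a 3′ G was the weakest of the 4 (0 of 71 against 5 of 38, -13.2 points, -27.3 to -4.15; adjusted p by Fisher's exact test = 0.0344), and it did not pass within the changes absent from the other lists.

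In the other 3 lists C>G changes leaned the same way without passing. A 5′ G stood beside 14 of 28 changes in MB49, 10 of 24 in UV YUMM 1.1-9 and 7 of 18 in YUMM 1.3. A 3′ C stood beside 11 of 24, 10 of 19 and 6 of 15. For MB49 the 5′ G share exceeded that of its C>A changes by 28.3 points (6.06 to 48.0; adjusted p by Fisher's exact test = 0.0810), and for UV YUMM 1.1-9 by 27.4 points (5.48 to 48.3; adjusted p by Fisher's exact test = 0.0810). In YUMM 1.3 a 5′ G stood beside 5 of 15 C>A changes, and the difference was only 5.56 points (-25.6 to 34.5). Among 96 two-sided Fisher's exact tests of single neighbour bases between lines, 0 passed and 5 had an unadjusted p under 0.05, the lowest adjusted p being 0.465, so a stronger lean of YUMM 1.1 than of another line was not shown.

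**Figure D2:**
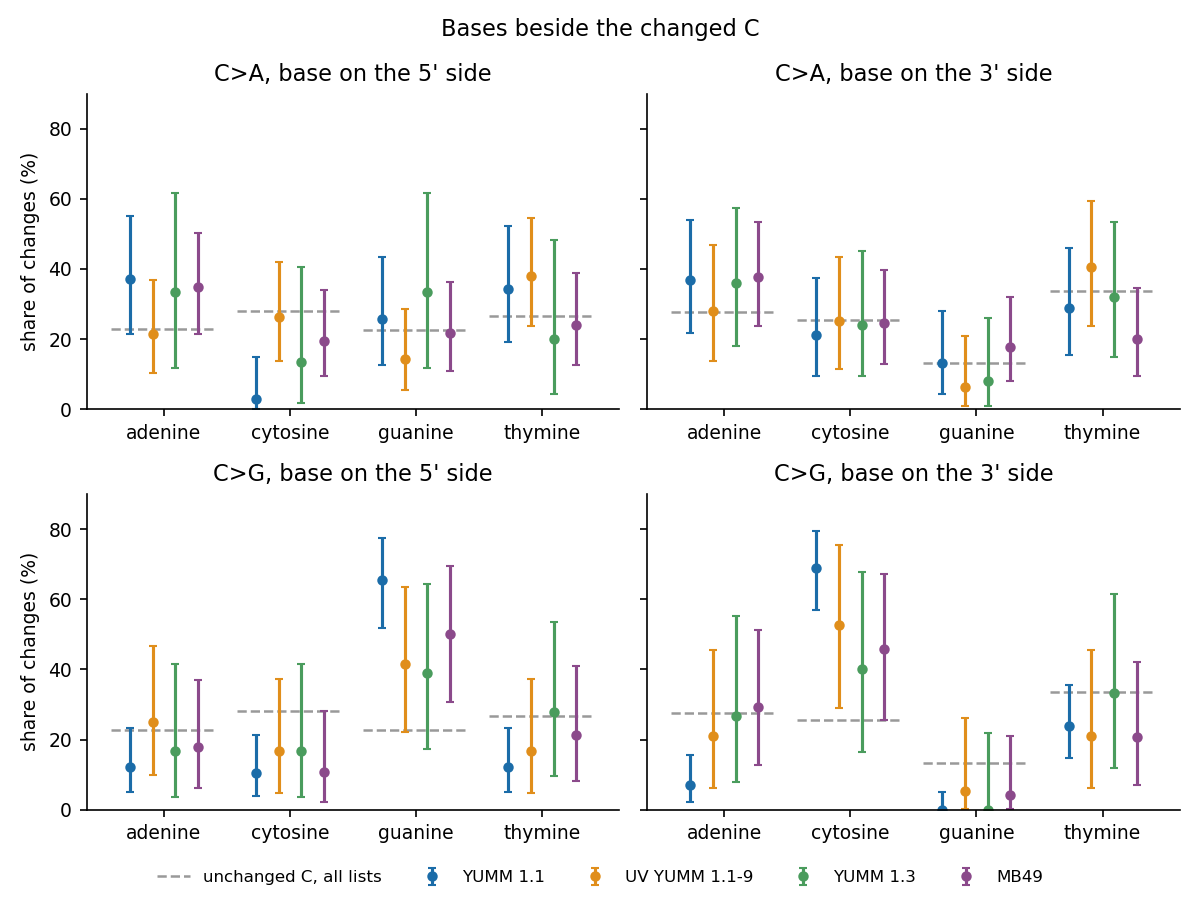
Share of C>A (upper panels) and C>G changes (lower panels) with each base on the 5′ (left) or 3′ side (right) of the changed C (y axis, %), for the 4 lines with exact 95% intervals, and dashed lines for unchanged C bases in the codons of all listed variants. YUMM 1.1 stands highest for a 5′ guanine (65.5%) and a 3′ cytosine (69.0%) of C>G, and the C>A panels show no comparable peak.

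Both neighbours are known where the change hit the middle base of a codon. There, 25 of 31 C>G changes of YUMM 1.1 lay between G and C (80.6%, 62.5 to 92.5). The same arrangement was found in 5 of 10 in UV YUMM 1.1-9, 5 of 13 in MB49 and 2 of 8 in YUMM 1.3. C>A changes lay in it in 2 of 15, 1 of 15, 3 of 21 and 2 of 8 cases for YUMM 1.1, UV YUMM 1.1-9, MB49 and YUMM 1.3. It surrounded 40 of 561 unchanged C bases with both neighbours known (7.13%, 5.14 to 9.58). These shares were compared after the base pattern was seen and are given without a test.

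Counting codons in which every known neighbour fitted G on the 5′ and C on the 3′ side, 59 of the 98 C>G changes of YUMM 1.1 qualified (60.2%, 49.8 to 70.0), against 12 of 33, 9 of 25 and 14 of 39 in UV YUMM 1.1-9, YUMM 1.3 and MB49. As a share of all variants of the list these were 13.8% in YUMM 1.1, 1.84% in UV YUMM 1.1-9, 4.00% in YUMM 1.3 and 1.98% in MB49. C>G changes in other surroundings made 9.11%, 3.22%, 7.11% and 3.54%. YUMM 1.1 was the highest list for both groups of C>G changes, and neither difference was tested. The other 2 bases of the codon were G or C in 67.9% of cases for C>G in YUMM 1.1, 60.6% in UV YUMM 1.1-9, 53.8% in MB49 and 50% in YUMM 1.3, while C>A codons stood between 40.6% and 44.3%. For the variants of other classes the shares were 53.1%, 40.1%, 51.8% and 56.5% in the same order of lines. The C>G share of YUMM 1.3 thus lay under that of its other classes.

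The 25 middle-base changes exchanged glycine and alanine in both directions, 13 from the glycine codon gGc to gCc and 12 from the alanine codon gCc to gGc. A C>G change at the middle base of these codons can give no other exchange, so the exchange restates the neighbours. The 25 changes lay in 25 genes on 15 chromosomes. None of them was listed in YUMM 1.3 or MB49. The same held for 86 of all 98 C>G changes of YUMM 1.1 and for 234 of its 330 other variants. The UV YUMM 1.1-9 list leaves out changes of YUMM 1.1 by construction. Glycine and alanine are the smallest amino acids and differ by a methyl group. In all, 26 of 82 missense C>G changes of YUMM 1.1 were of this kind (31.7%, 21.9 to 42.9), against 6 of 26 in UV YUMM 1.1-9, 6 of 33 in MB49 and 3 of 22 in YUMM 1.3. C>A cannot make this exchange, and 0 were found among its 39, 39, 51 and 26 missense changes. Leucine to valine (10), proline to alanine (9) and alanine to proline (6) were the next exchanges of C>G in YUMM 1.1.

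Genes with this exchange in YUMM 1.1 were picked out after their values were seen. Dvl1, a scaffold of the Wnt pathway, carried A336G in 24 of 51 reads (47.1%, 32.9 to 61.5). Cspg4, a cell-surface proteoglycan known from melanoma, carried G723A in 7 of 17 reads (41.2%, 18.4 to 67.1). The change of Anapc7, a subunit of the anaphase-promoting complex, was A396G in 15 of 47 reads (31.9%, 19.1 to 47.1). Cdk9, the kinase that releases paused RNA polymerase, lay at the low end with G42A in 8 of 67 reads (11.9%, 5.30 to 22.2). SIFT, which predicts from conservation whether an exchange is tolerated, called the first 3 deleterious and that of Cdk9 tolerated. These picks do not stand for the rest. Of all C>G changes of YUMM 1.1 with a call, 33 of 73 were called deleterious. For classes other than C>A and C>G in that list, 59 of 144 were. Over the 25 changes the allele fraction, the share of reads with the new base, ran from 11.9% to 47.1% with a median of 27.0%, and the depth from 17 to 128 reads with a median of 46.

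Genes with 2 or more C>G changes in 1 list were few. Itga6, an integrin chain that binds laminin, had L638V in 19 of 87 reads and V665L in 9 of 45 in YUMM 1.1. Muc6, a gastric mucin with long repeats, had T1928S in 34 of 267 and V1552= in 27 of 145. Gm10220 carried C46W and W43C in YUMM 1.1, YUMM 1.3 and MB49. For C>A, Zscan4c had Q239K in 6 of 51 reads and N349K in 55 of 302 in YUMM 1.1, while MB49 had 2 changes in the epidermal protein Flg (S1377= in 10 of 25, A2775E in 21 of 56) and 2 in Mroh2a (I96= in 47 of 93, M820I in 62 of 230). In UV YUMM 1.1-9 no gene had 2 changes of the same class.

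The C>G sites of YUMM 1.1 were shallower than the rest of their list. Their depth was 48 reads at the median and ran from 11 to 459, and 73 of 98 lay under the list's median depth against 139 of 330 other variants. The difference was 32.4 points (21.5 to 41.6; adjusted p by Fisher's exact test = 3.16e-07 over 16 tests), and it passed under all 6 other settings. C>G sites of the other lists had median depths of 35 reads in UV YUMM 1.1-9, 108 in YUMM 1.3 and 45 in MB49, none past the threshold against their own list. In YUMM 1.1 the C>G sites found in no other list had a median depth of 45.5 reads, and the 12 shared ones 227. C>A sites had median depths of 82, 40, 156.5 and 75 reads in YUMM 1.1, UV YUMM 1.1-9, YUMM 1.3 and MB49, with no difference from the rest of the list that passed. The part that depth or base composition has in the C>G share was not tested.

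C>G changes of YUMM 1.1 were also more often private, found in no other list. Of the 98, 86 were private (87.8%, 79.6 to 93.5), against 234 of 330 other variants, a difference of 16.8 points (7.64 to 24.1; adjusted p by Fisher's exact test = 0.00321 over 6 tests). Among private changes a 5′ G was found in 37 of 52 and a 3′ C in 46 of 63, and among the few shared ones in 1 of 6 and 3 of 8. For C>A of YUMM 1.1 a 5′ G was found in 4 of 27 private and 5 of 8 shared changes, and none of these contrasts was tested. In MB49 the private share of C>G leaned the other way without passing (31 of 39 against 604 of 668, -10.9 points, -26.1 to -0.891; adjusted p by Fisher's exact test = 0.116). For C>A, 41 of 58 changes were private in YUMM 1.1, 16 of 32 in YUMM 1.3 and 58 of 70 in MB49, and none of these shares passed against the rest of its list.

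The UV YUMM 1.1-9 list reaches down to 3 alternative reads and an allele fraction of 3.62%, while the members of the other 3 lists start at 5 reads and 10%, so their medians are not on the same footing. Median allele fractions of C>A were 22.5% in YUMM 1.1, 13.2% in UV YUMM 1.1-9, 18.9% in YUMM 1.3 and 41.6% in MB49, and those of C>G were 25%, 16.7%, 29.4% and 43.2%. In UV YUMM 1.1-9, 8 of 33 C>G changes lay under the list's median allele fraction against 317 of 620 other variants (-26.9 points, -39.0 to -9.65; adjusted p by Fisher's exact test = 0.0291). This call was lost under 4 of 6 other settings, among them a floor of 5 alternative reads and 10% (-17.7 points; adjusted p by Fisher's exact test = 0.463). In MB49 more C>A changes lay under the median, 45 of 70 against 308 of 637 (15.9 points, 3.61 to 26.9; adjusted p by Fisher's exact test = 0.0634), without passing.

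**Figure D3:**
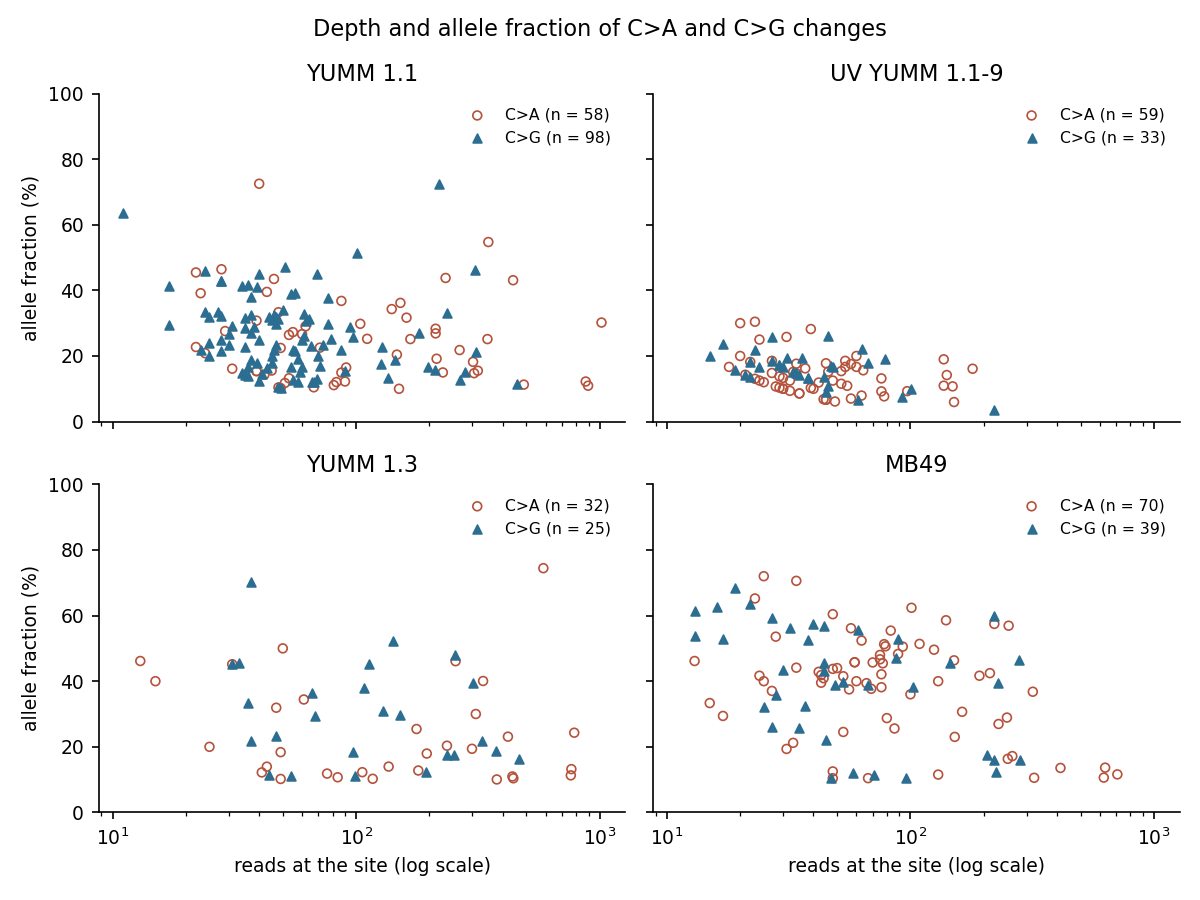
Allele fraction (y axis, %) against the number of reads at the site (x axis, log scale) for each C>A (circles) and C>G change (triangles), 1 panel per line. C>G changes of YUMM 1.1 crowd around a median of 48 reads, UV YUMM 1.1-9 stays under 31% throughout, and MB49 has the highest medians, 41.6% for C>A and 43.2% for C>G.

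The highest allele fractions in YUMM 1.1 were those of C>A changes of Higd1b, a mitochondrial protein (L39M, 29 of 40 reads, 72.5%), and of Tmcc1 of the endoplasmic reticulum (L508=, 191 of 349, 54.7%), and C>G changes of Tmcc1 (R485S, 158 of 218, 72.5%) and Ttc22 (G523=, 7 of 11, 63.6%). The same L508= of Tmcc1 was the highest C>A change of YUMM 1.3, in 437 of 587 reads (74.4%), and its R485S was listed in MB49 too, at 60%. In YUMM 1.3 the highest C>G change was P1140A of Dnmt1, the maintenance DNA methyltransferase, in 26 of 37 reads (70.3%, 53.0 to 84.1), called deleterious. Npepps, an aminopeptidase, followed with S523C in 74 of 142 reads, and Arap2 carried the C>A change G230W in 25 of 50. In MB49 the C>A changes of Gm5591 (A481S, 18 of 25 reads), the prostaglandin receptor Ptgdr (A98=, 24 of 34) and Tmem115 (A303S, 15 of 23) led, and the matrix metalloproteinase Mmp17 carried the C>G change R522P in 14 of 22. In UV YUMM 1.1-9 none passed 31%, with Irs4 A663D (7 of 23 reads) and Tead4 D112E (6 of 20), an effector of Hippo signalling, leading C>A. The silent T41= of the splicing factor U2af1 (12 of 46, 26.1%) led C>G.

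The C>A changes showed no neighbour preference that differed between lines past the threshold. A pyrimidine preceded 13 of 35 C>A changes of YUMM 1.1 and 27 of 42 of UV YUMM 1.1-9, a difference of -27.1 points (-46.0 to -4.75; adjusted p by Fisher's exact test = 0.475 over 24 tests). Of these 24 tests of a 5′ pyrimidine or a 3′ G between lines, 0 passed and 1, this one, had an unadjusted p under 0.05. The most frequent C>A exchanges were glutamate to stop, methionine to isoleucine and threonine to asparagine in MB49, with 4 each, and glycine to valine in UV YUMM 1.1-9, with 4.

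Within the 2 classes, C>A made 17 of 19 stop gains. The 2 classes reach stop codons from different codons, and this split was not tested. The 4 lists held 69 stop gains in all, of which the other substitution classes made 50. Those were 2 of 272 other variants in YUMM 1.1, 30 of 561 in UV YUMM 1.1-9, 3 of 168 in YUMM 1.3 and 15 of 598 in MB49. The 17 came 8 from glutamate codons, 4 from tyrosine, 2 each from glycine and serine and 1 from cysteine codons. By line they were 4 of 58 C>A changes in YUMM 1.1 (6.90%, 1.91 to 16.7), 6 of 59 in UV YUMM 1.1-9 (10.2%, 3.82 to 20.8), 1 of 32 in YUMM 1.3 (3.13%, 0.0791 to 16.2) and 6 of 70 in MB49 (8.57%, 3.21 to 17.7). C>G gave 0 of 98 in YUMM 1.1 (up to 3.69%), 1 of 33 in UV YUMM 1.1-9, 0 of 25 in YUMM 1.3 and 1 of 39 in MB49. Among 12 two-sided Fisher's exact tests between lines 0 passed and 0 had an unadjusted p under 0.05. For C>A the widest interval of a difference reached 17.7 points, between UV YUMM 1.1-9 and YUMM 1.3 (7.04 points, -6.69 to 17.7).

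In YUMM 1.1 the stop gains were in Dram1, a lysosomal protein induced by p53 that takes part in autophagy (G106*, 15 of 55 reads, 27.3%), Rprm, a p53-induced inhibitor of the cell cycle (Y109*, 5 of 24, 20.8%), the olfactory receptor gene Olfr382 (Y102*, 58 of 266) and 4930522H14Rik (S3*, 55 of 152). The change of 4930522H14Rik is the one printed above and lies 3 codons into the protein. How much of its protein each stop gain removes was not examined. In MB49 they included Mars2, the mitochondrial methionyl-tRNA synthetase (E391*, 32 of 70 reads), Nnt, the mitochondrial transhydrogenase (Y106*, 22 of 53), Ly6i of the Ly6 family (C104*, 36 of 100), Ccdc171 (E174*, 24 of 60), 4931408C20Rik (E778*, 18 of 42) and Gm13213 (E57*, 127 of 221, 57.5%). Its C>G stop gain was in Slc46a2, a membrane transporter (Y36*, 13 of 19, 68.4%, 43.4 to 87.4). YUMM 1.3 had Dzip1l, a protein of cilia (E729*, 5 of 41).

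UV YUMM 1.1-9 carried C>A stop gains in Dixdc1, a regulator of Wnt signalling (S85*, 5 of 34 reads), Rrp1b, a nucleolar protein (E49*, 8 of 52), AC126554.8 (E137*, 29 of 180), Gm2832 (E198*, 26 of 137), the Y-linked zinc finger gene Zfy2 (G486*, 9 reads, 5.96%) and 2700062C07Rik (Y24*, 3 of 24), and a C>G stop gain in 6030458C11Rik (S400*, 7 of 36). The change of 2700062C07Rik lay 2 bases from a T>A change in the same codon with 3 reads of its own, so that its predicted stop holds only if the changes sit on different molecules, which the files do not tell. At Gm2832 and Zfy2 the parent line had 1 read with the new base.

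**Figure D4:**
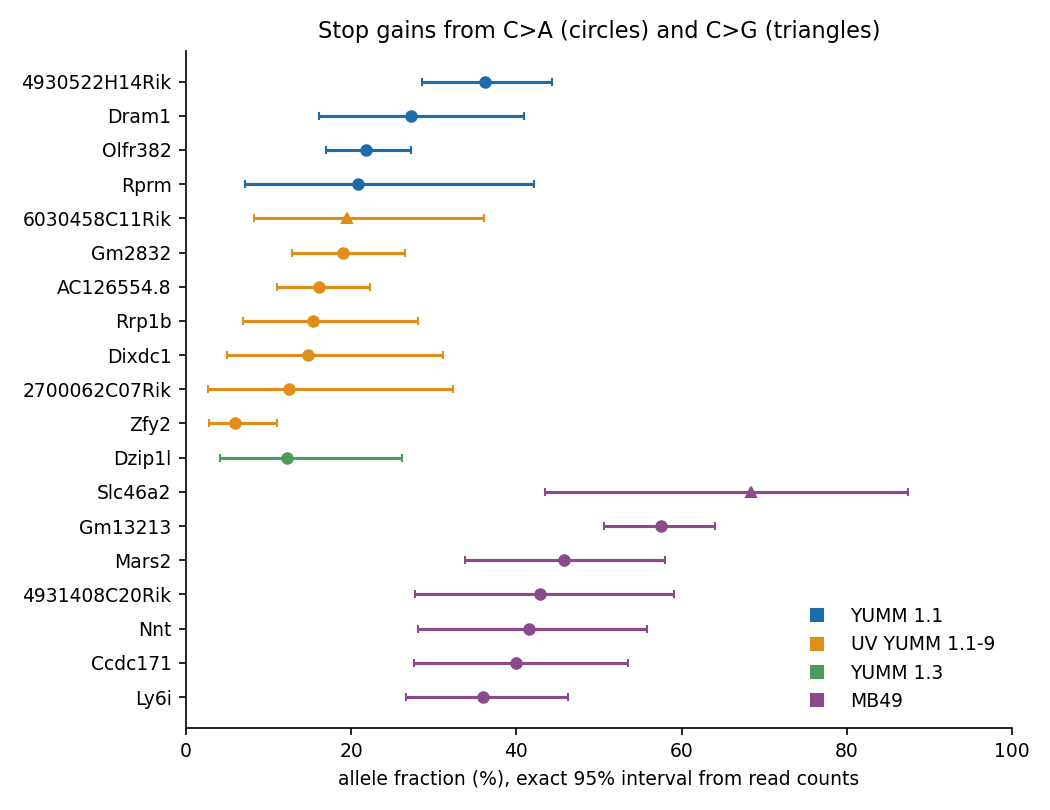
Allele fraction (x axis, %) of each of the 19 stop gains made by C>A or C>G, with its exact 95% interval, by gene and line, circles for C>A and triangles for C>G. MB49 holds the highest, Slc46a2 at 68.4%, and Zfy2 in UV YUMM 1.1-9 lowest.

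Predicted damage and strand did not separate the lines. SIFT called deleterious 16 of 33 missense C>A changes with a call in YUMM 1.1, 22 of 37 in UV YUMM 1.1-9, 9 of 22 in YUMM 1.3 and 22 of 43 in MB49. For C>G the counts were 33 of 73, 13 of 25, 12 of 18 and 12 of 24. In 12 two-sided Fisher's exact tests 0 passed and 0 had an unadjusted p under 0.05. The changed C lay on the coding strand in 56.9%, 49.2%, 40.6% and 51.4% of C>A changes and in 45.9%, 51.5%, 60% and 51.3% of C>G changes, in the same order of lines, and in 12 such tests 0 passed and 0 had an unadjusted p under 0.05. Intervals of the differences were wide, -41.7 to 4.12 points for the SIFT share of C>G in YUMM 1.1 against YUMM 1.3 and -5.09 to 35.5 for the strand of C>A in the same pair.

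Reads of the parent line YUMM 1.1 are listed at each UV YUMM 1.1-9 site. At the 59 C>A sites the parent had no read with the new base at 48 and 1 such read at 11. At the 33 C>G sites the counts were 30 and 3. In all, 11 of 3791 parent reads at C>A sites (0.290%, 0.145 to 0.519) and 3 of 1726 at C>G sites (0.174%, 0.0359 to 0.507) had the new base, against 13.2% and 13.7% in UV YUMM 1.1-9. Site by site, two-sided Fisher's exact tests adjusted over the whole list called 34 of the 59 C>A and 22 of the 33 C>G sites, beside 64.0% of all 653 sites, and since the list was made for this contrast nothing is read from these counts.

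Sites listed in more than 1 line were 17 for C>A, 6 in 2 lists and 11 in 3, and 13 for C>G, 8 in 2 and 5 in 3. The 5 C>G sites in 3 lists were both changes of Gm10220, Gm1979 G218R, Gm21136 V345L and the silent L431= of Hjurp, a chaperone of centromeric histones. Hjurp also carried a C>A change in 3 lists, P504=, in 87 of 346 reads of YUMM 1.1, 97 of 420 of YUMM 1.3 and 45 of 262 of MB49. Allele fractions at a shared C>G site in 3 lists differed by a median of 1.68 points between the lists, and at a C>A site in 3 lists by 3.89 points. At sites in 2 lists the medians were 5.52 points for C>G and 3.94 for C>A. Gm1979 stood at 143 of 309, 122 of 255 and 130 of 279 reads in YUMM 1.1, YUMM 1.3 and MB49. Gm5591 A481S had the widest range, 8 of 29 reads, 5 of 25 and 18 of 25 in the same order. Most of the 11 C>A genes carry only a serial gene symbol, and reads of near-identical gene copies may be divided between them, which was not tested.

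**Figure D5:**
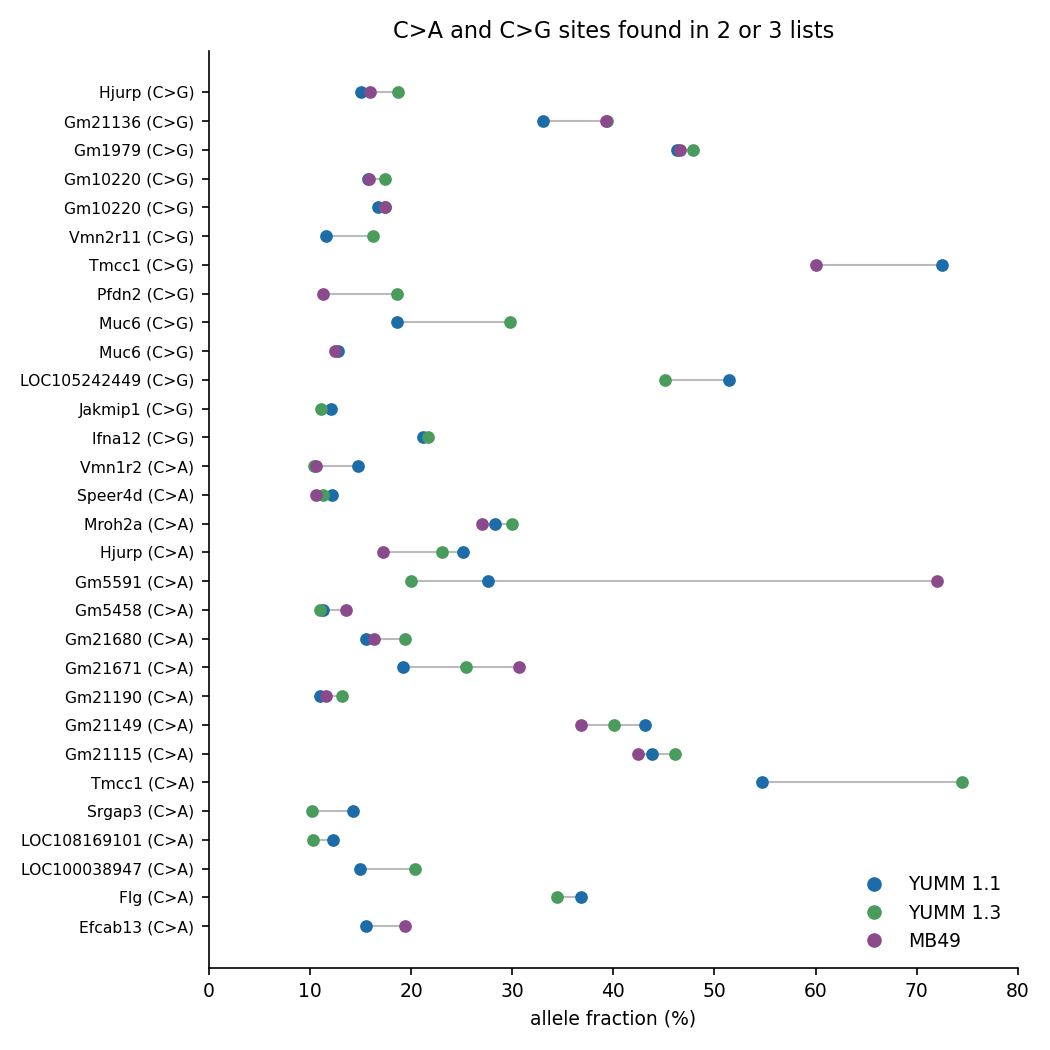
Allele fraction (x axis, %) of each C>A and C>G site found in 2 or 3 lists, 1 row per site and 1 point per line, joined by a grey line. The median range is 1.68 points for C>G sites in 3 lists, 5.52 for C>G in 2, 3.89 for C>A in 3 and 3.94 for C>A in 2, and Gm5591 spans the widest range, 52 points.

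Of the members, 13 lay within 2 bases of another listed change, 8 of them in UV YUMM 1.1-9 (5 of 59 C>A and 3 of 33 C>G changes, beside 44 of 561 other variants of that list), 3 in MB49 and 2 in YUMM 1.1. In UV YUMM 1.1-9 the W122L change of Pbp2 (C>A) had 3 reads beside a T>C change of the same codon with 3, and A115P of Olfr307 (C>G) had 15 beside a C>T change with 14. In YUMM 1.1 a C>A change, E710D, and a C>G change, Q711E, sat on neighbouring bases of Jakmip1, each with 7 alternative reads. In MB49 Tnfsf18 had the C>A change G79V in 40 reads beside a C>T change of the same codon in 42, and Cd163, a macrophage scavenger receptor, had G284V in 35 reads beside a T>C change in 35. Where 2 listed changes fall in 1 codon, the predicted exchange treats each alone.

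Some lists of cancer, repair and immune genes were also examined. Among 36 melanoma and bladder cancer genes, 3 carried 1, C>G changes of the splicing factor Sf3b1 (A2P, 7 of 30 reads) and of Gnaq, a G protein subunit (A18G, 6 of 28), in YUMM 1.1, and the silent C>A change I741= of the cohesin gene Stag2 (6 of 34) in UV YUMM 1.1-9. Neither the 21 genes of oxidative base repair, the 15 polymerases, the 5 cytidine deaminases, the 39 autophagy genes nor the 27 genes of antigen presentation and interferon signalling held one. Dram1, described above, is not among the 39. Members carried 348 gene symbols in all. The share of all genes with a member was not computed, so nothing is read from the counts of these short lists.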

How the data were processed

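The 4 deposited lists give, per the file headers, the position, codon, amino acid exchange, SIFT class and read counts of each coding change. These counts are whole numbers as deposited by the authors, not normalized. Build mm10, BWA 0.7.5a, GATK, SAMtools, Picard and FastQC were used, per the submitters' processing notes; how variants were called and filtered is not given in the sources used here. Repeat rows were removed (1 in YUMM 1.1, 5 in UV YUMM 1.1-9). In 32 UV YUMM 1.1-9 rows, 5 of them members, base columns were exchanged with those of a partner row, and the codon was used. 1 member has a symbol turned into a date and is unnamed. Neighbours were read from the codon. Of 348 symbols 338 matched RefSeq.

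Shares have Clopper-Pearson intervals, differences Newcombe intervals, and libraries or classes were compared by two-sided Fisher's exact tests, adjusted by Benjamini-Hochberg within each family (SciPy 1.17.1, pandas 2.3.3), after tests on simulated data. Named were stop gains, the 3 highest allele fractions per class and line, genes with 2 or more members, listed genes and sites in 3 lists; others were named after their values were seen. Some items that this rule names, and 1 gene list, are not reported here. The members and lists were chosen with earlier results of these data known. Alternatives were a common floor, an allele fraction of at least 20%, a depth of at least 20 reads, private variants, no multigene families, no variants within 2 bases of another, and middle codon positions.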

Additional observations from a re-analysis of the deposited data

How the results depend on the processing

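No paired analysis was possible because each line had 1 library. Values here are differences in percentage points. Each exact p in this section is the Benjamini-Hochberg adjusted p of a Fisher's exact test, and not the unadjusted p. The cause of each change was not tested. The C>A share of YUMM 1.1 minus UV YUMM 1.1-9 no longer passed with allele fractions of at least 20% (4.09, exact p = 0.546), depth of at least 20 (4.64, exact p = 0.0501), private variants (3.78, exact p = 0.138), no multigene families (3.39, exact p = 0.219) and no close variants (4.46, exact p = 0.0563). YUMM 1.1 minus YUMM 1.3 turned to 0.0507 with the depth minimum, and UV YUMM 1.1-9 minus YUMM 1.3 passed with the common floor (-6.51, exact p = 0.0332). The C>G share of YUMM 1.1 minus YUMM 1.3 (9.42, exact p = 0.160) and of UV YUMM 1.1-9 minus YUMM 1.3 (-8.01, exact p = 0.248) fell short at 20% allele fraction. UV YUMM 1.1-9 minus MB49 turned to 0.0688 with the floor, 1.79 at 20% and 0.172 for private variants. The 5′ pyrimidine difference of C>A, YUMM 1.1 minus UV YUMM 1.1-9, turned to 9.52 at 20%. For allele fractions under the list median, C>A of MB49 passed for private (19.4, exact p = 0.0225) and no close variants (17.6, exact p = 0.0360), and C>G of UV YUMM 1.1-9 fell short with the floor (-17.7, exact p = 0.463), at 20% (0), with the depth minimum (-24.3, exact p = 0.110) and without families (-23.7, exact p = 0.102). Depth under the list median passed for C>G of UV YUMM 1.1-9 with the floor (32.8, exact p = 0.0459) and of MB49 for private variants (26.5, exact p = 0.0225). Between C>G and C>A of YUMM 1.1, private variants brought 5′ A (-29.3, exact p = 0.0187) and 5′ T (-32.9, exact p = 0.0116) past the threshold, and middle positions 5′ T (-33.3, exact p = 0.0193). Middle positions lost 3′ A (-26.7, exact p = 0.0535), and 3′ G was lost at 20% (-13.6, exact p = 0.148), for private (-12.5, exact p = 0.0764) and for middle positions (-13.3, exact p = 0.340). The 5′ G difference turned to -2.86 at 20% and passed at middle positions in UV YUMM 1.1-9 (66.7, exact p = 0.0193), and passed for private variants of MB49 (39.4, exact p = 0.0116). The 5′ G and 3′ C differences of YUMM 1.1 passed under all 7 settings (39.7 to 56.3 and 47.5 to 60.4). Depth limits single sites: at a median of 35 reads in UV YUMM 1.1-9 C>G, allele fractions have wide intervals.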
